A study of Mus musculus with 12 samples.

Results

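The ATP-binding cassette (ABC) family was followed from mouse colonic crypts into confluent monolayers grown from them. Members were taken by name, as the genes whose symbol starts with Abc, a subfamily letter from a to g and a number. The rule found 50 of the 23420 genes in the count files: 16 in subfamily A, 10 in B, 10 in C, 4 in D, 1 in E, 3 in F and 6 in G. A total of 35 passed the filter on low counts and were tested, 12 others had too few counts for a test, and Abca16, Abcb5 and Abcc9 had no count in any library. RNA sequencing covered 12 libraries: crypts in 3, and monolayers in 3 for each of day 3, day 4 and day 5. Per the labels, the crypts came from a wild-type mouse aged 6 to 10 weeks, cells were first grown as monolayers on collagen, and these were replated on scaffolds with a gradient of cross-linking. The transepithelial resistance in the labels read 526 ± 56 ohm cm2 on day 3, then 623 ± 15 on day 4, then 407 ± 53 on day 5, with an error of unnamed kind. Since the sources used here do not state whether the 3 libraries of a group are separate mice or cultures, each p-value reflects only how far these libraries spread, which may be technical.

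ABC proteins bind and hydrolyse ATP in paired nucleotide-binding domains, and most use the energy to move a substrate across a membrane. In the gut, members at the luminal face return drugs, plant toxins and sterols to the lumen, members at the basolateral face pass conjugates towards the blood, and others work in peroxisomes, lysosomes and mitochondria. Subfamilies E and F carry the ATPase domains without a membrane part and act in translation.

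Levels below are CPM, the usual depth-scaled gene counts, with library sizes scaled by TMM factors, and changes are log2 fold changes ± SE with p-values of edgeR's quasi-likelihood test, adjusted over all 12863 genes tested. A gene is called when its adjusted p is under 0.05. Library totals ran from 4518314 to 14290393 gene counts, and the family took 0.248 to 0.297% of them. The 8 markers of intestinal epithelium summed to 9151 to 10380 CPM in crypts and 10700 to 14540 CPM in monolayers, most of it from keratins, Epcam and Cdh1. Of these 8, Krt8, Krt18 and Krt19 were called higher and Epcam, Vil1, Cdx1 and Cdx2 lower, and Cdx1, an intestinal transcription factor, had 120 to 152 CPM in crypts and 0.604 to 13.0 CPM in monolayers. Of the other cell types checked, the summed goblet cell markers were 27990 to 36640 CPM in crypts against 16.5 to 72.1 CPM in monolayers, and those of absorptive colonocytes 5359 to 7981 CPM against 1183 to 2732 CPM. Mesenchymal markers summed to 10.5 to 75.8 CPM in crypts and 0.0998 to 4.03 CPM in monolayers. In such bulk samples fewer cells of a type and less RNA per cell cannot be told apart.

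Between the monolayers of all 3 days and crypts, 26 of the 35 tested members were called (74.3%), 12 higher and 14 lower. Over all genes tested the share called was 63.5%, with 30.7% higher and 32.8% lower, so the family changed about as often as genes at large. The median log2 fold change was -0.14 over the tested members and -0.03 over all genes. Against the crypts, day 3 had 24 calls beside 56.3% of all genes (10 higher beside 28.4%, 14 lower beside 27.9%). Day 4 had 24 beside 57.1% (12 higher beside 28.7%, 12 lower beside 28.4%), and day 5 had 24 beside 57.3% (13 higher beside 28.4%, 11 lower beside 28.9%). These comparisons share the crypt libraries. A total of 20 members were called in the same direction at every day, 10 higher and 10 lower. Abca5, Abca7, Abca8b, Abcb10, Abcb1b, Abcf1 and Abcf3 were called at none. The share of all genes called in the same direction at every day was not computed, so the 20 have no background beside them. Several of the 20, among them Abcb8, Abcb9 and Abcc8, lost the call of a day when single libraries were left out. By subfamily, G had 4 tested members, all called lower, and C had 8, with 4 called higher and 3 lower. Subfamily A had 3 higher and 3 lower of 9, B had 1 higher and 3 lower of 7, D had 2 higher and 1 lower of 3, F had 1 higher of 3, and the single member of E was higher.

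**Figure D1:**
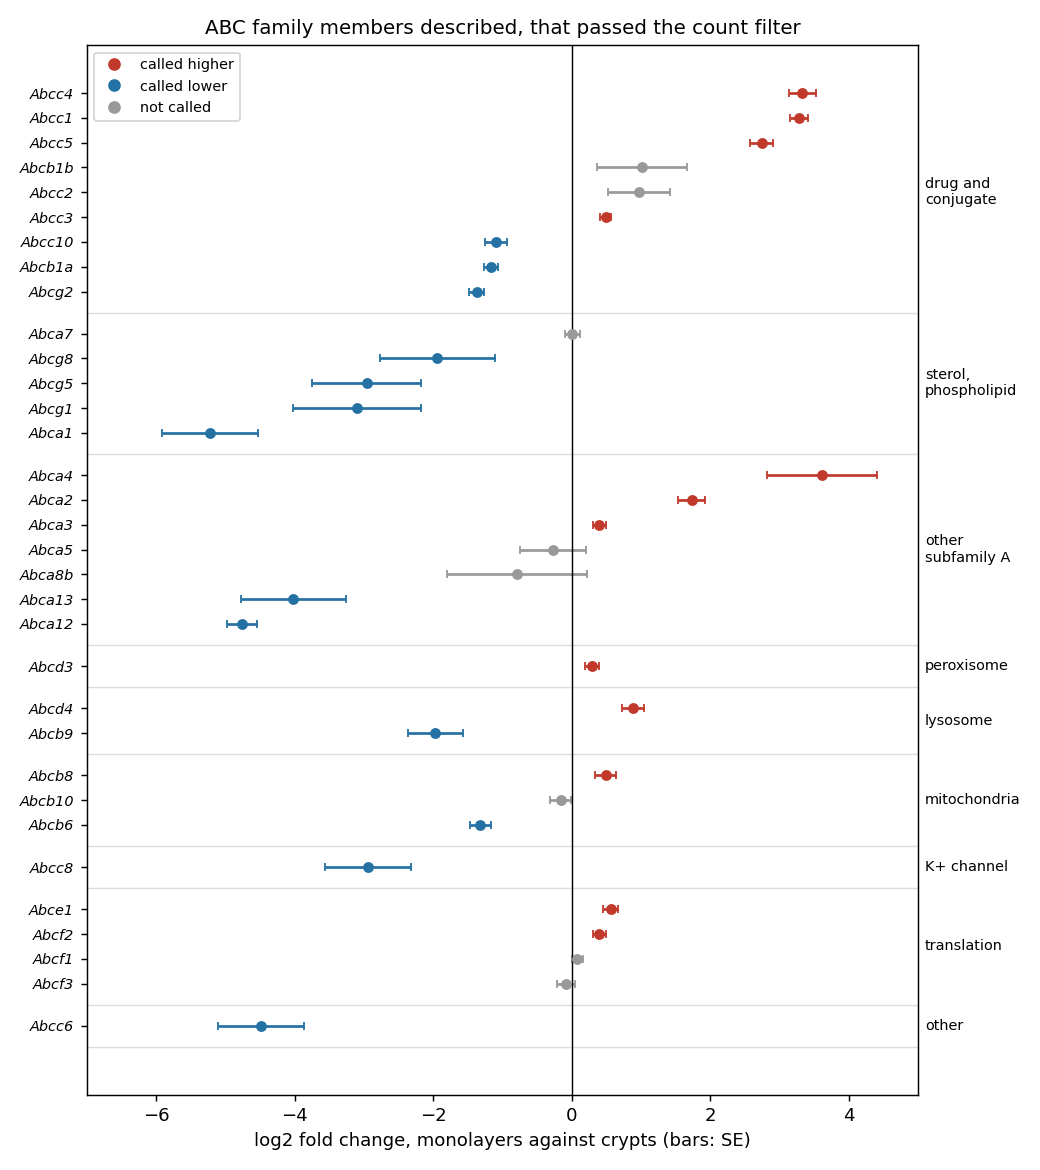
Log2 fold change of tested members in monolayers against crypts (x axis, bars show the SE), grouped by role; red points were called higher, blue points lower and grey points not called by edgeR. The drug and conjugate group runs from -1.37 (Abcg2) to 3.33 (Abcc4), while no tested member of the sterol and phospholipid group was called higher. Fitted values of members with few counts, such as Abca1, Abca13, Abcc6 and Abcg8, depend on the prior count.

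The drug and conjugate efflux group changed its makeup more than its sum. Abcb1a, Abcg2 and Abcc10 were lower in monolayers, Abcc1, Abcc3, Abcc4 and Abcc5 were higher, and Abcc2 and Abcb1b were not called. The 9 genes together gave 1125 to 1414 CPM in crypts and 1306 to 1682 CPM in monolayers, and these ranges overlap.

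Abcb1a encodes P-glycoprotein, the pump that returns many drugs from the luminal membrane of enterocytes to the gut lumen. It had 700.2, 756 and 902 CPM in the 3 crypt libraries, 246, 225 and 254 CPM at day 3, 445, 313 and 280.5 CPM at day 4 and 535, 523 and 504 CPM at day 5. Every monolayer library lay below every crypt library, and the days rose in order with no overlap between them. The change across days against crypts was -1.16 ± 0.10 (edgeR adjusted p = 1.12e-08). As a share of the crypt mean, the level was 30.8% at day 3, 44.1% at day 4 and 66.3% at day 5. Abcg2 encodes the breast cancer resistance protein, a luminal pump of urate, porphyrins and many drugs. Its 3 crypt libraries had 76.0, 118 and 93.6 CPM, those of day 3 had 25.2, 24.0 and 22.9 CPM, those of day 4 had 43.4, 34.6 and 36.7 CPM and those of day 5 had 60.2, 51.0 and 55.8 CPM. The order was that of Abcb1a, with 4 groups that did not overlap, and the change against crypts was -1.37 ± 0.11 (edgeR adjusted p = 4.78e-09). Abcc10, a broad-specificity exporter of subfamily C, had 44.0, 30.9 and 35.0 CPM in crypts and 11.6 to 26.5 CPM (median 17.1) in the 9 monolayer libraries. These ranges were apart as well, and the change was -1.09 ± 0.16 (edgeR adjusted p = 6.56e-06). Exons of Abcc10 overlap those of Dlk2 on the other strand, so without a stated strand setting its counts may hold reads of that gene.

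The members that were higher are exporters of conjugates and nucleotides. Abcc1 encodes MRP1, a basolateral exporter of glutathione conjugates and leukotriene C4. It had 35.0, 30.1 and 50.2 CPM in crypts, 368, 356 and 381 CPM at day 3, 412, 395 and 414 CPM at day 4 and 388, 353 and 355 CPM at day 5. All 9 monolayer libraries were far above the crypts and close to one another, with a change of 3.28 ± 0.13 (9.75-fold, edgeR adjusted p = 7.23e-14). Abcc4, encoding MRP4, an exporter of cyclic nucleotides, prostaglandins and bile acid conjugates, had 9.61, 27.6 and 15.3 CPM in crypts. Its levels were 198, 211 and 229 CPM at day 3, 181, 191 and 227 CPM at day 4 and 118, 153 and 139 CPM at day 5. No monolayer library came near the crypt range, and the change was 3.33 ± 0.20 (edgeR adjusted p = 6.03e-11). Abcc5, encoding MRP5, a further exporter of cyclic nucleotides, had 10.4, 21.9 and 21.5 CPM in crypts and 106 to 154 CPM (median 117) in monolayers. That is a change of 2.74 ± 0.17 (edgeR adjusted p = 5.18e-11). Abcc3 encodes MRP3, a basolateral exporter of glucuronides, and moved least of the 4. It had 246, 311 and 296 CPM in crypts and 354 to 444 CPM (median 397) in monolayers, a change of 0.49 ± 0.08 (edgeR adjusted p = 2.12e-05).

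The remaining pair had low counts. Abcc2, encoding MRP2, the luminal exporter of conjugates, had 1.40, 3.13 and 1.71 CPM in crypts and 2.44 to 8.66 CPM (median 3.56) in monolayers. These ranges overlap, and the change of 0.97 ± 0.45 did not pass (edgeR adjusted p = 0.066). It did pass without crypts replicate 2 (1.38, edgeR adjusted p = 0.0338), without day 4 replicate 3 (1.07, edgeR adjusted p = 0.0468) and without day 5 replicate 2 (1.08, edgeR adjusted p = 0.0408). Against crypts at day 5 alone it was called higher (1.44 ± 0.52, edgeR adjusted p = 0.0257), a call lost without crypts replicate 1 (1.25) or 3 (1.29) or day 5 replicate 1 (1.04). Abcb1b, the second mouse gene of P-glycoprotein, had 2.001, 1.30 and 0.180 CPM in crypts and 0.847 to 5.64 CPM (median 2.25) in monolayers. The change was 1.01 ± 0.65 (edgeR adjusted p = 0.189), and it was 1.63 without crypts replicate 1. Abcb1a and Abcb1b are closely related paralogues, and since reads without a unique alignment were dropped, reads that fit both are missing from their counts.

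**Figure D2:**
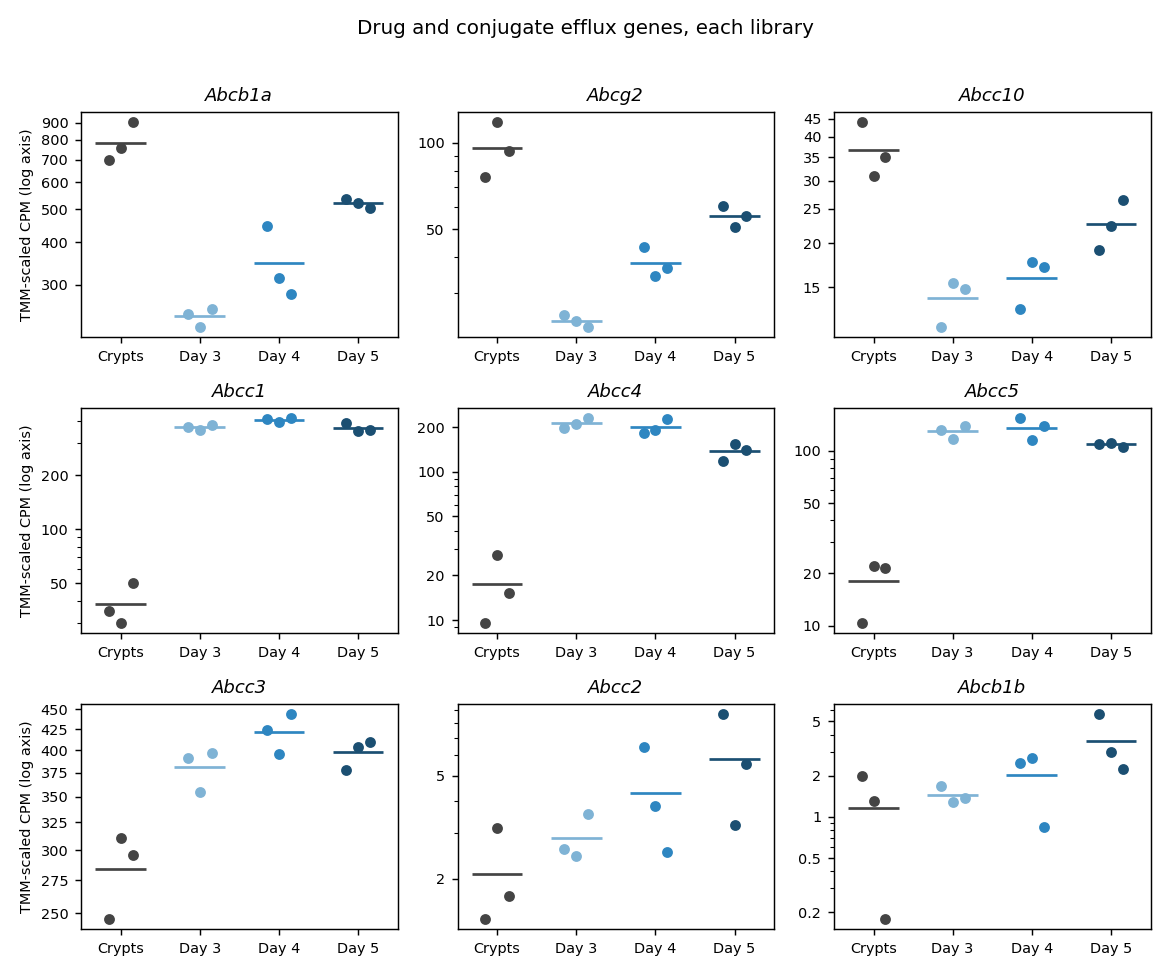
TMM-scaled CPM (y axis, log scale) of the 9 drug and conjugate efflux genes in crypts and in monolayers at day 3, day 4 and day 5; each point is a library and each line the mean of 3. Abcb1a and Abcg2 are highest in crypts and climb from day 3 to day 5, whereas Abcc1, Abcc4 and Abcc5 are lowest in crypts in every panel.

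Abcb1a and Abcc4, with opposite changes, are shown by the 200 bases upstream of the start that RefSeq lists for them, in the build GRCm38.p6. Capitals mark a GC box (GGGCGG, the Sp1 site) and the core of the antioxidant response element (TGACNNNGC, bound by Nrf2), each searched on either strand. The Abcb1a window is chr5:8566891-8567090 on the plus strand, and the Abcc4 window is chr14:118706220-118706419 on the minus strand, printed 5′ to 3′ along the gene.
Abcb1a: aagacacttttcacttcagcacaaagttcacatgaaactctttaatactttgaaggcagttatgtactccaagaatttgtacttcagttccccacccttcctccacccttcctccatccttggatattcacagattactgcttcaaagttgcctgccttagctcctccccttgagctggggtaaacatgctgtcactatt
Abcc4: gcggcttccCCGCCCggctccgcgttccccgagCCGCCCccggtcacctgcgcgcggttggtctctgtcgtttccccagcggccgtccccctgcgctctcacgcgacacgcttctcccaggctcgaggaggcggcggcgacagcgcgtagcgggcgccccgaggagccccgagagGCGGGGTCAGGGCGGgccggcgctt
The Abcb1a stretch held no match to either motif and 43.5% G and C, and that of Abcc4 held 3 GC boxes, 1 antioxidant core directly next to the last of them, and 77.5% G and C. Promoter windows of 300 bases (250 before and 50 after the start) were found for 38 of the 50 members, 45 windows in all. The antioxidant core was in 15.6% of the 45 and in 12.4% of all 32851 RefSeq windows of that length, and the GC box in 46.7% and 35.7%. Abca8b, Abcb1a, Abcc10, Abcc2 and Abcc4 were the members with the antioxidant core, which in the Abcb1a window lay after the start. A match of letters is a description and shows no binding.

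Set per kilobase of exon, the group's makeup was led by Abcb1a in crypts and shared among several genes in monolayers. On the scale of CPM per kilobase, Abcb1a made up 63.1 ± 2.90% of the group's sum in crypts (SD, n = 3), 19.8 ± 0.308% at day 3, 24.6 ± 4.67% at day 4 and 35.5 ± 0.920% at day 5. Abcc1 went from 2.26 ± 0.470% in crypts to 22.2 ± 0.359% at day 3 and 18.3 ± 0.962% at day 5, and Abcc4 from 1.22 ± 0.611% to 15.2 ± 0.960% and 8.13 ± 1.02%. The share of Abcc3 was 22.8 ± 1.62% in crypts and 31.2 ± 0.721% at day 3. For each of these 4 genes the crypt libraries lay apart from those of day 3. Within the sum over all 50 members per kilobase, the group held 44.8 ± 1.28% in crypts. On the 3 days its part was 42.3 ± 0.997%, then 45.8 ± 1.77%, then 46.5 ± 0.785% (SD, n = 3), so the balance between its members shifted while its part of the family moved by a few percentage points.

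**Figure D3:**
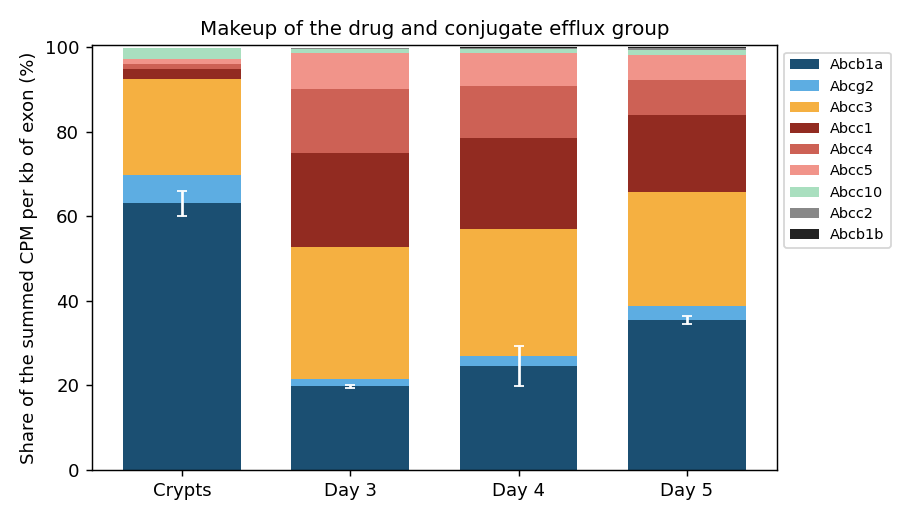
Share of each drug and conjugate efflux gene in the group's summed CPM per kilobase of exon (y axis, percent, mean of 3 libraries) in crypts and at each day; the white bars are the SD of the Abcb1a share. Abcb1a takes 63.1% in crypts and 19.8% at day 3, and the shares of Abcc1, Abcc4 and Abcc5 are wider in the monolayers.

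Abcb1a and Abcg2 were the members called between each pair of days. From day 3 to day 4, 2 tested members were called beside 2.77% of all genes, both higher (1.59% of all genes were higher, 1.17% lower): Abcb1a (0.52 ± 0.13, edgeR adjusted p = 0.041) and Abcg2 (0.67 ± 0.15, edgeR adjusted p = 0.0207). From day 4 to day 5, 3 were called beside 7.56% of all genes, all higher (3.36% of all genes were higher, 4.20% lower): Abcb1a (0.59 ± 0.13, edgeR adjusted p = 0.00899), Abcg2 (0.54 ± 0.15, edgeR adjusted p = 0.0348) and Abca13, described with the lipid transporters. From day 3 to day 5, 8 were called beside 20.4% of all genes, 5 higher (9.90% of all genes) and 3 lower (10.5%). Abcb1a (1.11 ± 0.13, edgeR adjusted p = 8.55e-06) and Abcg2 (1.21 ± 0.15, edgeR adjusted p = 1.54e-05) were higher at day 5 in 3 of 3 libraries, and both kept that call when any single library was left out. The calls between neighbouring days were lost more often when a library was left out. For day 4 against day 3, Abcb1a was no longer called without any 1 of the 3 day 3 libraries, day 4 replicate 1 or 2, or day 5 replicate 2 or 3 (0.30 to 0.59, lowest without day 4 replicate 1), nor was Abcg2 without any 1 of the day 3 libraries or day 4 replicate 1 (0.56 to 0.70). For day 5 against day 4, Abcb1a was lost without day 4 replicate 2 (0.52) or 3 (0.45), and Abcg2 without day 3 replicate 2 (0.54) or 3 (0.54), day 4 replicate 2 (0.47) or 3 (0.51), or day 5 replicate 1 (0.48), 2 (0.60) or 3 (0.53).

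Abcc10 was also higher at day 5 than at day 3, with 19.1, 22.4 and 26.5 CPM against 11.6, 15.4 and 14.8 CPM (0.70 ± 0.20, edgeR adjusted p = 0.0203). Abcc4 went the other way, with 118, 153 and 139 CPM against 198, 211 and 229 CPM (-0.63 ± 0.19, edgeR adjusted p = 0.0232). The days did not overlap for either gene. The call of Abcc10 was lost without day 3 replicate 1 (0.58), day 5 replicate 2 (0.71) or day 5 replicate 3 (0.58), and that of Abcc4 without day 3 replicate 2 (-0.64) or 3 (-0.57), or day 5 replicate 1 (-0.54) or 3 (-0.64), and in the DESeq2 test (-0.64, DESeq2 adjusted p = 0.108). Over the same days the absorptive colonocyte markers went from 1524 ± 23.8 to 2599 ± 117 summed CPM (SD, n = 3) with 5 of 6 called higher, and the cycling cell markers from 616 ± 102 to 97.8 ± 8.98 with 4 of 5 called lower and 1 higher. Of all genes tested, 9.90% were higher and 10.5% lower over these days. The part of either cell type's markers in the changes of Abcc10 and Abcc4 was not tested.

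Conjugation enzymes, which supply the pumps with substrate, had calls in both directions, while most uptake carriers were lower. Of 27 genes of glutathione and glucuronide conjugation, 11 were called higher and 13 lower in monolayers, with a median log2 fold change of 0.00. Over all genes tested, 30.7% were called higher and 32.8% lower. Ugt2b35 and Ugt1a6a, which attach glucuronic acid, fell by 5.37 and by 4.59 on the log2 scale (SE 0.44 and 0.41, edgeR adjusted p = 3.77e-09 and 1.20e-08). Gsta2, a glutathione transferase, had no count in crypts and 2.56 ± 1.15 CPM in monolayers (SD, n = 9). Among 10 tested uptake carriers of organic ions, 2 were called higher and 7 lower, beside the same shares of all genes. Their summed level was 183 to 241 CPM in crypts and 38.5 to 68.3 CPM in monolayers. Slco2b1, a carrier of organic anions, had 15.2, 17.6 and 19.3 CPM in crypts and at most 0.151 CPM in monolayers, while Slco4c1 had no count in crypts and 0.847 to 4.11 CPM in monolayers.

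The sterol and phospholipid exporters had calls in 1 direction. Of 5 tested members 4 were called lower and none higher across the days, beside 32.8% lower and 30.7% higher of all genes. Their median log2 fold change was -2.96. Abca1 and Abcg5 passed the count filter only through their crypt libraries, which leaned their calls towards lower. Abcg4, with 1 count in crypts and 10 in monolayers, was not tested. Against crypts 4 members were lower at day 3, 2 at day 4 (Abca1 and Abcg5) and 1 at day 5 (Abca1), and none was higher. At day 3 the call of Abcg1 was lost without day 3 replicate 1 or 3, and that of Abcg5 without replicate 1 or 2. Fitted with day 3 and crypts alone, Abcg1 and Abcg8 did not pass the count filter. The day 4 call of Abcg5 was lost without crypts replicate 2 or day 4 replicate 1, 2 or 3. Abcg1 was called at day 5 without crypts replicate 3, and Abcg5 without day 5 replicate 2. Only the calls of Abca1 held throughout. Abca1 and Abcg1 load cholesterol onto apolipoproteins and lipoprotein particles, and Abcg5 and Abcg8 form the heterodimer that returns plant sterols and cholesterol to the lumen. All 4 are targets of the oxysterol receptors LXR. Their counts were low throughout, so ratios of pooled CPM are given with exact 95% intervals, which cover counting error only.

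Abca1 had 11.6, 4.04 and 6.67 CPM in crypts, 0.200, 0.0717 and 0 CPM at day 3, 0.0861, 0.934 and 0 CPM at day 4 and 0, 0.358 and 0.173 CPM at day 5. The groups did not overlap. Pooled, 163 counts in crypts stood against 19 in all monolayers, 32.4-fold lower (20.1 to 55.2), with an edgeR adjusted p of 2.61e-06. Without day 4 replicate 2, which held most of the day 4 counts, the fitted change went from -5.22 to -6.06 and the pooled ratio to 60.2. Abcg1 had 5.00, 3.00 and 0.361 CPM in crypts and 0 to 1.31 CPM (median 0.173) in monolayers. Here crypts replicate 3 lay within the range of the monolayers. The pooled level was 5.95-fold lower (3.77 to 9.50, edgeR adjusted p = 0.00656), and the call was lost without crypts replicate 1 (-2.40, edgeR adjusted p = 0.0679), while without day 3 replicate 2 the fitted change went from -3.10 to -4.15. The pooled ratio was 3.91 without crypts replicate 1, 10.3 without crypts replicate 3 and 9.10 without day 4 replicate 2.

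Abcg5 had 2.001, 3.26 and 1.80 CPM in crypts and 0 to 1.52 CPM (median 0.173) in monolayers. These did not overlap, the highest monolayer value being that of day 5 replicate 2. The pooled level was 6.70-fold lower (4.24 to 10.8, edgeR adjusted p = 0.00307), and the fitted change went from -2.96 to -4.18 without day 3 replicate 3. Without day 5 replicate 2 the pooled ratio was 13.0. Abcg8 differed from its partner over the days. It had 0.400, 1.82 and 0.902 CPM in crypts, 0, 0 and 0.0757 CPM at day 3, 0.430, 0.0934 and 0.121 CPM at day 4 and 5.64, 0.896 and 0.693 CPM at day 5. The day 3 libraries lay below the crypts and those of day 5 overlapped them, with day 5 replicate 1 far above all other libraries. Averaged over days it was called lower at the edge of the threshold (edgeR adjusted p = 0.0483), with a pooled ratio of 1.96-fold lower (1.17 to 3.21), and 4.21-fold without day 5 replicate 1. The call was lost without crypts replicate 2 (-1.32) or 3 (-2.05), day 3 replicate 1 (-1.82) or 2 (-1.77), day 4 replicate 2 (-1.81) or 3 (-1.85), or day 5 replicate 2 (-1.79) or 3 (-1.79), beside -1.94 with all libraries. Between day 3, with 1 count, and day 5, with 42 counts, the pooled ratio was 71.3 (12.1 to 2880, edgeR adjusted p = 0.00352). Day 5 replicate 1 held 28 of the 42 counts, and without it the ratio was 30.7 and the fitted change went from 5.87 to 4.37 (edgeR adjusted p = 0.0387). Leaving out day 5 replicate 2 gave a ratio of 111, and leaving out day 3 replicate 2 gave 44.5. The fitted change was 7.43 without day 3 replicate 3, which held the single count. In a fit of the 9 monolayer libraries alone Abcg8 did not pass the count filter.

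Abca7 and Abcg4 complete the group. Abca7, a phospholipid exporter also linked to phagocytosis, had 69.8, 46.8 and 64.5 CPM in crypts and 55.0 to 65.6 CPM (median 61.2) in monolayers. Its groups overlapped, and the change was 0.01 ± 0.11 (edgeR adjusted p = 0.96). Per kilobase it was the highest of the 6 genes in crypts, at 8.94 CPM per kilobase beside 0.973 for Abcg5. It is therefore most of the group's summed level of 59.1 to 88.9 CPM in crypts and 56.0 to 66.9 CPM in monolayers. Abcg4 was not tested, with 1 count in crypts and 10 in monolayers.

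**Figure D4:**
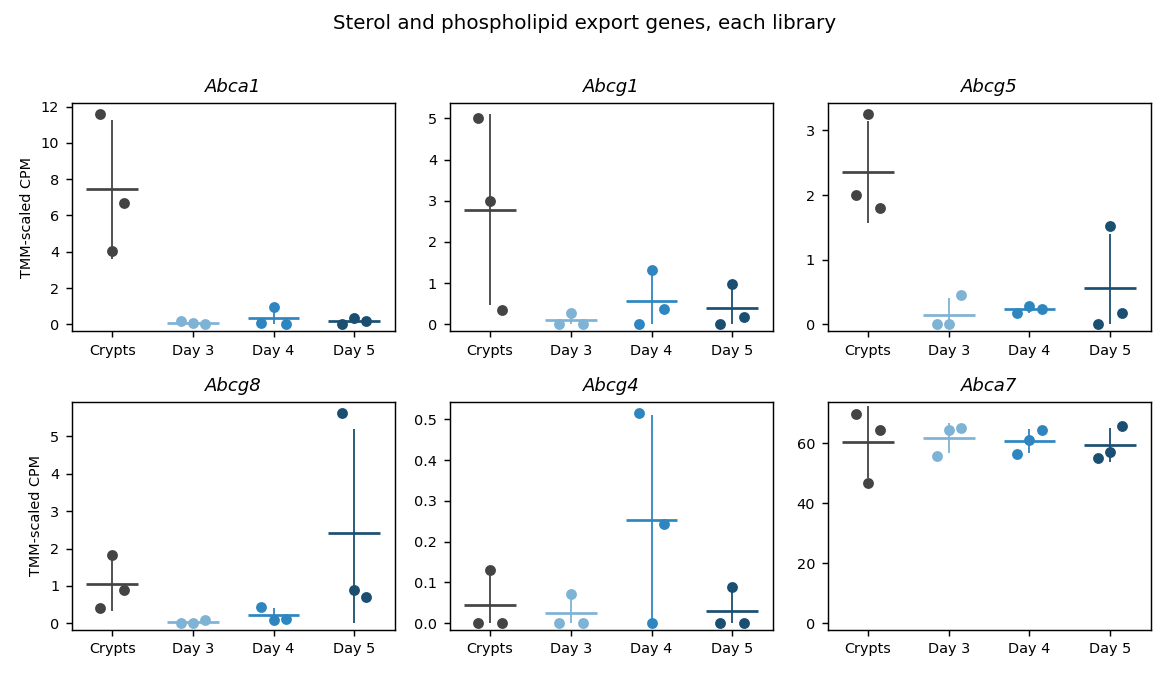
TMM-scaled CPM (y axis, linear, a separate scale in each panel) of the 6 sterol and phospholipid export genes in crypts and in monolayers at day 3, day 4 and day 5; points are libraries, horizontal lines means and vertical lines the SD of 3, cut at 0. Abca1, Abcg1 and Abcg5 sit near 0 in most monolayer libraries, the high Abcg8 point at day 5 is replicate 1, and Abca7 stays near 60.4 CPM, its crypt mean.

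The starts of Abcg5 and Abcg8 lie 110 bases apart in RefSeq and point away from each other, so the sequence between them is upstream of both. It is shown, with the 200 bases upstream of Abca1, since these are the gene of the group with the lowest adjusted p and a pair with a shared promoter. In GRCm38.p6 the interval is chr17:84683012-84683120, printed along the plus strand, on which Abcg8 lies, and the Abca1 stretch is chr4:53159896-53160095 on the minus strand. Capitals mark a TATA box (TATAAA), an E-box (CACGTG) or a GC box (GGGCGG) on either strand.
Abcg5-Abcg8: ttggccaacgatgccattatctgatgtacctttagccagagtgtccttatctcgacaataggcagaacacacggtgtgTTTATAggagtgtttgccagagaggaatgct
Abca1: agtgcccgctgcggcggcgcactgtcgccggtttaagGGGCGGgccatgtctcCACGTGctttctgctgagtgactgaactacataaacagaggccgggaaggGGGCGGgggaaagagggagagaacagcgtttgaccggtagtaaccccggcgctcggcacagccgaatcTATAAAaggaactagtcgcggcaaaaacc
The interval held 1 TATA box, on the minus strand, on which Abcg5 lies. It sat at -84 to -79 bases from the Abcg5 start. From the Abcg8 start it sat at -31 to -26 bases, in reverse orientation. The Abca1 stretch held 2 GC boxes, 1 E-box and 1 TATA box. A TATA box was in 15.6% of the 45 member windows and 13.6% of all RefSeq windows, and an E-box in 13.3% and 7.15%. The strict form of the direct repeat bound by LXR was in 0 member windows and in 0.0152% of all windows. Exons of Abcg5 and Abcg8 overlap on opposite strands in the GENCODE annotation, so without a strand setting some reads cannot be told apart between them.

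The receptors of the pathway and its targets outside the family were read from the same fit, in monolayers against crypts. In that comparison 63.5% of all genes were called, 30.7% higher and 32.8% lower, the shares to set beside each list below. Among 17 nuclear receptors and other factors known to act on ABC genes, 6 were called higher and 8 lower (median -0.47). Nr1h3, the gene of LXR alpha, had 11.4, 6.26 and 8.20 CPM in crypts and 0.121 to 0.806 CPM in monolayers (-4.31 ± 0.44, edgeR adjusted p = 8.08e-08). It passed the count filter only through its crypt libraries, which leaned its call towards lower. Ppara, the fatty acid receptor, and Nr1h4, the bile acid receptor FXR, fell by 5.31 and by 3.36 on the log2 scale (SE 0.34 and 0.22, edgeR adjusted p = 1.13e-10 and 1.51e-10). Every one of the 10 LXR targets outside the family was called, 5 in each direction, beside 63.5% of all genes. Mylip, whose product marks the LDL receptor for degradation, was lower (-4.97 ± 0.37, edgeR adjusted p = 1.05e-09). Arl4c, a small GTPase, and Scd1, a fatty acid desaturase, were higher by 4.57 ± 0.41 and 2.62 ± 0.26 (edgeR adjusted p = 1.62e-08 and 6.68e-08). The 12 tested genes of bile acid and sterol handling divided into 5 higher and 5 lower. Slc51a and Slc51b, the subunits of the basolateral bile acid exporter, fell by 6.81 and by 5.90 (SE 0.37 and 0.23, edgeR adjusted p = 9.84e-12 and 9.29e-14), and Fabp6, the ileal bile acid binding protein, had 1.001, 15.5 and 7.84 CPM in crypts and no count in monolayers.

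Abca1 and Abcg1 are also known from macrophages. Of 7 leukocyte markers, Ptprc had 9.56 to 21.6 CPM in crypts and 0 to 0.604 CPM in monolayers, Lyz2 0.811 to 2.74 and 0 to 0.303 CPM, Itgam 1.60 to 3.13 and 0 to 2.82 CPM, and Cd68 0.6003 to 2.09 and 19.9 to 45.5 CPM. The sum of all 7 was 15.0 to 32.1 CPM in crypts and 21.5 to 45.5 CPM in monolayers, and Cd68 gave most of the latter. Whether leukocyte RNA in the crypts has a part in the levels of Abca1 or Abcg1 was not tested.

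The other lipid transporters of subfamily A went both ways. Of 7 tested, 3 were called higher and 2 lower, beside 30.7% and 32.8% of all genes, with a median log2 fold change of -0.27. Abca12, which loads glucosylceramide into lamellar granules of keratinocytes, had 60.6, 110 and 81.3 CPM in crypts and 1.08 to 4.83 CPM (median 3.01) in monolayers. No library of either group came near the other, and the change of -4.76 ± 0.22 (27.1-fold, edgeR adjusted p = 1.28e-12) had the lowest adjusted p of the family's falls. Abca2, a lysosomal sphingolipid transporter, had 8.004, 8.08 and 9.74 CPM in crypts and 19.7 to 38.6 CPM (median 27.4) in monolayers (1.73 ± 0.20, edgeR adjusted p = 3.65e-07). Abca3, the surfactant lipid transporter of lung, had 115, 114 and 76.8 CPM in crypts and 118 to 159 CPM (median 129) in monolayers, a change of 0.40 ± 0.10 (edgeR adjusted p = 0.00273). Its crypt and monolayer libraries were apart by a few CPM, and the call was lost when library totals replaced the TMM factors (0.22, edgeR adjusted p = 0.079). That scaling moved the median of all genes from -0.03 to -0.21, and it also ended the calls of Abcb8, Abcd3 and Abcf2.

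Abca4 and Abca13 had few counts. Abca4, the retinoid flippase of photoreceptors, had 0, 0.782 and 0 CPM in crypts and 1.88 to 5.69 CPM (median 3.26) in monolayers. It passed the count filter only through its monolayer libraries, which leaned its call towards higher. The pooled level, with 6 counts in crypts, was 13.0-fold higher (5.91 to 35.8, edgeR adjusted p = 0.000573), and the groups did not overlap. All 6 of those counts were in crypts replicate 2, and without crypts replicate 3 the ratio was 6.95. Abca13, of unsettled substrate, had 1.60, 0.782 and 3.43 CPM in crypts, 0.200, 0.215 and 0.0757 CPM at day 3, no count at day 4 and 0.403, 0.717 and 1.21 CPM at day 5. It was called lower than crypts across days (pooled 8.53-fold, 5.13 to 14.6, edgeR adjusted p = 0.000222) though day 5 reached into the crypt range. Without crypts replicate 3, with 38 of the 52 crypt counts, the pooled ratio was 4.31-fold lower. Day 5 was at least 7.92-fold higher than day 4 against a floor of 3 counts over the group, with an exact 95% lower limit of 5.76 (edgeR adjusted p = 0.0251), a call that was lost without day 4 replicate 1, 2 or 3, or without day 5 replicate 2 or 3 (5.54 to 5.95 on the log2 scale). Abca5 (-0.27 ± 0.47) and Abca8b (-0.79 ± 1.01) were not called (edgeR adjusted p = 0.63 and 0.518). The untested members of the subfamily, Abca6, Abca8a, Abca9, Abca14, Abca15 and Abca17, had between 1 and 71 counts over all libraries, led by Abca14 with 4 counts in crypts and 67 in monolayers. Abca8a and Abca8b, and Abca14 to Abca17, are groups of related genes, and their counts are uncertain for the reason given for Abcb1a.

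Abcb4, which flips phosphatidylcholine into bile, and Abcb11, the bile salt export pump of the liver, did not pass the count filter. Abcb11 had 17 counts in crypts and 1 in monolayers, a pooled ratio of 64.2-fold lower (10.1 to 2680). Crypts replicate 3 held 15 of the 17, and without it the ratio was 14.2 (0.737 to 835). Abcb4 had 16 counts in crypts and 3, 5 and 33 on the successive days, and its day 5 to day 3 ratio was 18.7 (5.86 to 95.2, counting error only). All 16 crypt counts were in replicate 3, and 26 of the 33 day 5 counts in replicate 2, without which the ratio was 8.08 (1.84 to 48.4). It was 11.7 without day 3 replicate 2.

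The peroxisomal members carry fatty acyl-CoA into the organelle for oxidation. Abcd3, the abundant transporter of branched-chain and bile acid precursors, had 219, 330.1 and 320 CPM in crypts and 324 to 404 CPM (median 354) in monolayers. The ranges overlap, and the change of 0.29 ± 0.10 was called (edgeR adjusted p = 0.0137). It rests on crypts replicate 1, without which the change was 0.13 (edgeR adjusted p = 0.115), and on the scaling, with 0.11 (edgeR adjusted p = 0.31) under library totals. Abcd2 had 7 counts in crypts and 3 in monolayers and was not tested. Of 26 genes of peroxisomal oxidation and biogenesis, 2 were called higher and 14 lower, beside 30.7% higher and 32.8% lower of all genes. The list was called about as often as genes at large (63.5%), with most of its calls lower. Its median log2 fold change was -0.42, and its summed level was 1060 to 1228 CPM in crypts and 668 to 940.0 CPM in monolayers. Phyh, which starts the breakdown of phytanic acid, and Acaa1b, a thiolase, fell by 3.60 and by 3.41 (SE 0.16 and 0.48, edgeR adjusted p = 7.92e-13 and 4.99e-06), and Acox2, the oxidase of branched-chain substrates, was higher (3.81 ± 0.27, edgeR adjusted p = 6.58e-10). Phyh was higher at day 5 than at day 3 (1.63 ± 0.25, edgeR adjusted p = 0.00012).

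Of the lysosomal pair, Abcd4, which carries cobalamin out of the lysosome, was higher and Abcb9, a peptide transporter, was lower. Abcd4 had 14.6, 13.4 and 13.3 CPM in crypts and 20.95 to 30.9 CPM (median 24.3) in monolayers, with no overlap (0.89 ± 0.16, edgeR adjusted p = 0.000104). Abcb9 had 9.01, 8.35 and 3.79 CPM in crypts and 0.726 to 3.83 CPM (median 1.44) in monolayers. Only day 5 replicate 1 reached the lowest crypt library, and the change was -1.97 ± 0.40 (edgeR adjusted p = 0.000282).

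The mitochondrial half-transporters serve iron, heme and peptide handling. Abcb6, linked to porphyrin transport, had 43.0, 51.5 and 70.9 CPM in crypts and 15.1 to 32.7 CPM (median 21.1) in monolayers. It was lower without overlap (-1.32 ± 0.15, edgeR adjusted p = 5.53e-07). Abcb8, a part of the mitochondrial potassium channel complex, had 18.4, 23.6 and 19.9 CPM in crypts and 23.5 to 36.1 CPM (median 28.4) in monolayers, ranges that touch, with a change of 0.49 ± 0.15 (edgeR adjusted p = 0.00931) that library totals reduced to 0.31 (edgeR adjusted p = 0.0964). Abcb10, needed for heme synthesis in red cell precursors, had 34.4, 30.9 and 21.6 CPM in crypts and 23.2 to 29.5 CPM (median 25.2) in monolayers (-0.16 ± 0.15, edgeR adjusted p = 0.365). The 22 genes of iron-sulfur cluster and heme synthesis gave 6 calls in each direction, beside 30.7% higher and 32.8% lower of all genes. That is no more often than genes at large. Slc25a37, the mitochondrial iron importer, was higher (1.59 ± 0.17, edgeR adjusted p = 1.84e-07), and Alas1, the first enzyme of heme synthesis, and Uros, a later one, fell by 0.93 and by 0.89 (SE 0.10 and 0.27, edgeR adjusted p = 1.15e-07 and 0.00759).

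The 4 members that act in translation had 2 calls, both higher, beside 30.7% higher and 32.8% lower of all genes. Abce1, which splits ribosomes after termination, had 92.7, 87.6 and 129 CPM in crypts, 181, 168 and 165 CPM at day 3, 133, 169 and 169 CPM at day 4 and 131, 133 and 131 CPM at day 5. All monolayer libraries were above the crypts, by little at day 5, and the change was 0.56 ± 0.11 (edgeR adjusted p = 0.000181). Day 5 was below day 3 without overlap (-0.38 ± 0.13, edgeR adjusted p = 0.0402), a call that was lost when any 1 library of either day was left out (-0.34 to -0.41). Abcf2 had 57.0, 44.9 and 48.0 CPM in crypts and 60.6 to 70.7 CPM (median 64.9) in monolayers (0.40 ± 0.10, edgeR adjusted p = 0.00176), and under library totals 0.21 (edgeR adjusted p = 0.0725). Abcf1 (0.08 ± 0.08) and Abcf3 (-0.09 ± 0.13) were not called (edgeR adjusted p = 0.407 and 0.575), with 219 to 259.7 against 222 to 296 CPM for Abcf1, an initiation factor, and 25.9 to 31.8 against 24.2 to 32.3 CPM for Abcf3. Among 13 tested partners in ribosome rescue and initiation, 4 were called higher and 1 lower in monolayers, beside 30.7% and 32.8% of all genes. The list was thus called less often than genes at large (63.5%). At day 5 against day 3, 5 were lower and none higher, beside 10.5% lower and 9.90% higher of all genes. Eif2s1 and Eif5, both initiation factors, were higher by 0.69 ± 0.11 and 0.64 ± 0.08 (edgeR adjusted p = 2.80e-05 and 1.69e-06), as was Hbs1l, a ribosome rescue factor (0.59 ± 0.14, edgeR adjusted p = 0.00145). From day 3 to day 5 Eif5 fell by 0.87 and Eif2s1 by 0.56 on the log2 scale (SE 0.10 and 0.13, edgeR adjusted p = 3.52e-06 and 0.00452).

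The last members are channel regulators and genes of other roles. Abcc8, the sulfonylurea receptor of potassium channels in endocrine cells, had 3.40, 2.48 and 8.02 CPM in crypts and 0 to 1.59 CPM (median 0.645) in monolayers. It was lower without overlap (-2.94 ± 0.62, edgeR adjusted p = 0.000423), and the related receptor gene Abcc9 had no count. Abcc6, whose loss causes calcification of connective tissue, had 8.81, 4.69 and 4.60 CPM in crypts and 0 to 1.25 CPM (median 0.121) in monolayers. Both Abcc8 and Abcc6 passed the count filter only through their crypt libraries, which leaned their calls towards lower. The pooled level of Abcc6 was 15.5-fold lower (10.4 to 23.5, edgeR adjusted p = 4.79e-06), and 24.0-fold without day 5 replicate 2. From 2 counts at day 3 it went to 18 counts at day 5, a ratio of 15.3 (3.66 to 136, edgeR adjusted p = 0.0384), and 14 of those 18 counts were in day 5 replicate 2. Without that library the fitted change from day 3 went from 3.47 to 2.50 (edgeR adjusted p = 0.265) and the ratio to 6.92. The call was also lost without day 3 replicate 1 (3.06), 2 (3.69) or 3 (3.73), day 4 replicate 1 (3.45) or day 5 replicate 3 (3.48). Abcc12 had no count in crypts and 49 in monolayers, at least 4.33-fold higher against a floor of 3 counts over the crypts, with an exact 95% lower limit of 3.39. Abcg3 had 8 counts in crypts and 1 in monolayers. Neither passed the count filter. Without the filter Abcc12 was called higher (edgeR adjusted p = 0.0498), as it was by DESeq2 (DESeq2 adjusted p = 0.0433), and Abcg3 (edgeR adjusted p = 0.0222), Abca8a (0.0113), Abcb11 (0.00314) and Abcd2 (0.0481) were called lower. Abca14 was called higher without day 5 replicate 1 (edgeR adjusted p = 0.0399).

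Cftr, Tap1 and Tap2 are ABC proteins under other names, and all 3 were called lower, beside 32.8% of all genes. Cftr, the chloride channel of subfamily C, had 329, 330.3 and 377 CPM in crypts, 26.6, 23.1 and 28.8 CPM at day 3, 16.6, 11.7 and 18.0 CPM at day 4 and 11.1, 4.75 and 9.18 CPM at day 5. The 3 days lay far below the crypts (-4.56 ± 0.13, edgeR adjusted p = 1.60e-15), and day 5 was lower than day 3 (-1.75 ± 0.22, edgeR adjusted p = 1.40e-05). Tap1 and Tap2 form the peptide transporter of antigen presentation and fell by 1.42 and by 0.76 (SE 0.27 and 0.20, edgeR adjusted p = 0.000146 and 0.00272). Crypts replicate 2 was the highest library for both, with 75.2 CPM of Tap1 beside 24.6 and 19.9 CPM in the other crypts.

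Set per kilobase of exon, the order of levels across the family changed at its top. In crypts the mean CPM per kilobase was highest for Abcb1a (157), then Abcd3 (79.9), Abcf1 (76.0) and Abcc3 (56.8). At day 3 Abcd3 led (91.2), followed by Abcf1 (84.6), Abcc3 (76.1), Abcc1 (54.2) and Abcb1a (48.4). By day 5 Abcb1a and Abcd3 were level at 104 CPM per kilobase. Abcc1 moved from rank 17 in crypts to rank 4 at day 3, Abcc4 from 20 to 7, and Abca12 from 12 to 23. These are orders of means, and neighbours such as Abcd3 and Abcf1 in crypts lie within the spread of their libraries, which was 290 ± 61.7 CPM for Abcd3 and 240 ± 20.6 CPM for Abcf1 before division by length.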

How the data were processed

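RNA sequencing counts of 3 crypt libraries and 9 monolayer libraries were analysed. Counts per gene were deposited by the authors, 1 file per library. The submitters' processing notes name CASAVA 1.9, TopHat2 and HTSeq, and list both mm9 and mm10 without a role. The sources used here give neither the annotation nor the strand setting of the counting. Per the labels, RNA was extracted with the RNAqueous Micro kit. The 5 summary lines of each file were left out of library sizes and tests. Of these, reads in no feature made up 38.7 to 49.0% and reads without a unique alignment 14.2 to 19.2% of each file's total.

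Library totals were 4518314 to 14290393 gene counts. Genes were filtered with filterByExpr (minimum count 10), which kept 12863, and scaled by TMM factors of 0.91 to 1.116. A quasi-likelihood fit in edgeR 4.0.16 (R 4.3.3) held all 12 libraries and 4 groups, so that they shared 1 estimate of the spread. P-values were adjusted by Benjamini-Hochberg over all genes tested, with a threshold of 0.05, and the SE was derived from the fold change and its F statistic. Genes with few counts were compared by pooled ratios with exact 95% intervals, and a count of 0 was set against a floor of 3 counts (0.215 to 0.604 CPM in a single library). Exon lengths came from GENCODE M21 and promoters from RefSeq on GRCm38.p6.

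Full statistics were given for members with a mean of at least 5 CPM and for a list of other members, and for up to 3 called genes of each pathway list. Results of some genes are not reported here. Members and lists were chosen with earlier results of these data known. Alternatives were DESeq2 1.42.0, other scalings, no filter, fits of the compared groups alone, a replicate block and leaving out each library. Pooled ratios without single libraries were added after seeing the data.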

Additional observations from a re-analysis of the deposited data

Results flagged for a closer look

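Among the 26 members with full statistics, 4 had a library that stood apart from the other monolayers, judged over 9 libraries by the ratio of its gap to the range. Chance alone marks about 1 in 20 such groups. The 9 libraries span 3 days, so a level that differs by day can also be marked. Abca1 had 0.934 CPM in day 4 replicate 2, with the next library at 0.358 CPM. Abcg5 had 1.52 CPM in day 5 replicate 2, with the next at 0.454 CPM. Day 5 replicate 1 stood apart for Abcb1b, with 5.64 CPM beside 2.96 CPM, and for Abcg8, with 5.64 CPM beside 0.896 CPM.

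For 8 of the members described here the change against crypts differed between days by edgeR's test of the difference. Of the tested members 5.71% were called for day 4 against day 3, beside 2.77% of all genes. The shares were 8.57% beside 7.56% for day 5 against day 4, and 22.9% beside 20.4% for day 5 against day 3. Abcb1a rose by 0.52 on the log2 scale from day 3 to day 4, by 0.59 from day 4 to day 5 and by 1.11 over both steps, and Abcg2 by 0.67, 0.54 and 1.21. Abca13 rose by a fitted 5.91 from day 4, where it had no count, to day 5. From day 3 to day 5, Abcc10 rose by 0.70, and the fitted changes of Abcc6 and Abcg8 were 3.47 and 5.87 from 2 counts and 1 count at day 3. Over the same days the changes of Abcc4 and Abce1 were -0.63 and -0.38.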

How the results depend on the processing

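Low counts limit Abca1, Abca13, Abcc6, Abcg1, Abcg5 and Abcg8, and the libraries' unstated source limits every p-value. Across the alternatives, 416 values of single members against crypts kept their direction and side of the threshold, 16 lost the call, 3 gained it and 7 changed sign. The sign changes were in members that were not called, and their cause was not tested. Abca7 (0.01) went to -0.18 and Abcf1 (0.08) to -0.11 with library totals in place of TMM factors, and Abca7 was -0.03 with DESeq2 size factors and -0.03 with the DESeq2 test. When single libraries were left out, Abca7 ranged from -0.14 to 0.12. Counts of called members then ranged from 24 to 27 for all monolayers against crypts, from 0 to 2 for day 4 against day 3, from 0 to 5 for day 5 against day 4, and from 3 to 9 for day 5 against day 3. Without the filter on low counts, 5 members were called between day 4 and day 5, in place of 3. Library totals gave 23 calls against crypts, 8 higher and 15 lower. The shares of all genes called each way under that scaling were not computed. It also lowered the median of all genes, as given with Abca3, so the split is no result about the family. Same-numbered libraries did not deviate together (r of -0.034 to 0.058 over 18 pairs), which gave no sign that the numbers pair them. Deviations from means of 3 libraries cannot exclude a pairing with small effects. With the replicate block, 26 members were called against crypts, 1 between day 3 and day 4, 2 between day 4 and day 5, and 7 between day 3 and day 5. DESeq2 gave Abca13 no adjusted p between day 4 and day 5.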
